A study of Mus musculus with 20 samples.

Results

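Liver sinusoidal endothelial cells were followed through 10 marker genes: Clec4g, Lyve1, Gpr182, Stab1, Stab2, Kdr, Tek, Ptprb, Cdh5 and Pecam1. The genes were listed by name and not picked by a threshold on these arrays, although earlier results of these data were known when they were chosen. Each was read from probe sets annotated to that symbol alone, and where a gene had several the brightest over all arrays was used. The 10 genes are part of 18193 genes with a named probe set. A gene was tested when it exceeded 16 intensity units on at least 5 arrays, which 8774 genes did, among them 9 of the 10 markers. Pecam1 was the exception.

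The series measured liver RNA of 20 male mice on Affymetrix arrays, with 1 array per mouse and 5 mice in each of 4 groups. Its title names hepatic carbohydrate management in MCAD deficiency. MCAD, medium-chain acyl-CoA dehydrogenase, is the mitochondrial enzyme that Acadm encodes. Wild type and MCAD-/- mice each received either vehicle or LPS, which makes the 4 groups. LPS (lipopolysaccharide, a glycolipid of the bacterial outer membrane that sets off inflammation) was given at 100 µg per 20 g of body weight. All mice shared a BL6/SV129 mixed background, an age between 50 and 60 days, and a fast of 12 h that followed the injection, so no fed liver was compared. Whether mice of both genotypes were littermates is not given in the sources used here. The labels name no tissue-specific deletion, so the knockout is not one of the endothelium alone.

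Sinusoidal endothelial cells line the capillaries of the liver. They are perforated by fenestrae, lack an ordinary basement membrane, and clear waste macromolecules from blood through scavenger and lectin receptors. Signals from neighbouring cells, among them vascular endothelial growth factor (VEGF), keep up their specialised state, and they respond to bacterial LPS. In whole liver RNA, fewer endothelial cells and less of a transcript per cell cannot be told apart.

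RefSeq promoter windows (assembly GRCm38.p6, the 250 bases before each gene's start) were held for 5 of the 10 genes: Clec4g, Stab1, Stab2, Kdr and Tek. The windows of Clec4g, Stab2 and Kdr are shown as examples, 5′ to 3′ on the gene's strand. Their LPS differences were unlike between the genotypes, as was that of Tek, whose window is not shown. For Clec4g this rests on its vehicle levels, since it lay near the floor with LPS in both genotypes. Capitals mark GGAA and its reverse complement TTCC, the core recognised by ETS factors, a family with endothelial members. All 3 genes lie on the minus strand, with windows at chr8:3720652-3720901 for Clec4g, chr10:87007943-87008192 for Stab2 and chr5:75978456-75978705 for Kdr.
Clec4g: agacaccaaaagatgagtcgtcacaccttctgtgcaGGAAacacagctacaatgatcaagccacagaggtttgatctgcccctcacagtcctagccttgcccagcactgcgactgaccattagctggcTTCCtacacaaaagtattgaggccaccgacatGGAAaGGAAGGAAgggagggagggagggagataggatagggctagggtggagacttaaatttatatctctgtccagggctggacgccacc
Stab2: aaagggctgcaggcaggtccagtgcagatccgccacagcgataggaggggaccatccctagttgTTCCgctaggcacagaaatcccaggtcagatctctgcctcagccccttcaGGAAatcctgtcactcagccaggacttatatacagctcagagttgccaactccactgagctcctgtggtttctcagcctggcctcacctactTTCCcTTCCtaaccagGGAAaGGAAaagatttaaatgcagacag
Kdr: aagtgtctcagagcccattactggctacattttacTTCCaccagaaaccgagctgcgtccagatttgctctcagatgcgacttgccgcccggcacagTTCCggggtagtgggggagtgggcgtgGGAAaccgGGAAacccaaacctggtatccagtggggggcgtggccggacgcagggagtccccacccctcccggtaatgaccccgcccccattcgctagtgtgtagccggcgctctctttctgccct
Searched on both strands, the core was found 5 times before Clec4g, 6 times before Stab2 and 4 times before Kdr. Stab1 had 6 matches and Tek had 2. Among 32851 promoter windows of the same length 93.4% hold at least 1 match, with a median of 3. At least 2 matches are held by 76.8%, at least 4 by 33.4%, at least 5 by 18.0% and at least 6 by 8.69%. The GATA motif AGATAA was in none of the 5 windows, against 9.99% of all windows. TATAAA, the TATA box, had 1 match before Clec4g and none in the other windows held, against 12.4% of all windows. GGGCGG, bound by SP and KLF factors, was found 2 times before Kdr and is present in 32.7% of windows. No motif in this search contains another, and a match describes letters, not a bound site.

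Acadm checked the genotype labels. It lay between 1450 and 4022 units in the wild type mice and between 9.03 and 218 units in the MCAD-/- mice, the highest of the latter being LPS replicate 3. Per array, 30.2% to 32.3% of probe sets exceeded 16 units, and no arrays were identical. The log2 ratio of the 3' to the 5' actin control, a sign of RNA quality, was 3.18 in wild type vehicle replicate 3 and 3.69 in wild type LPS replicate 4, above all other arrays. Without these arrays the counts of markers past the threshold were 8, 2, 8, 7 and 6 over the 5 comparisons described here, against 8, 2, 7, 7 and 6 with them. Levels are given as GCRMA intensity on a linear scale ("units"). Values under 16 units lie near the floor that GCRMA imposes, so a fold is given as "at least" where no mouse of the dimmer group exceeded that level. Differences are on the log2 scale ± SE, with 5 mice per group, from a limma model over 8774 genes. The threshold was a Benjamini-Hochberg adjusted p of 0.05 over all of them, two-sided.

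**Figure D1:**
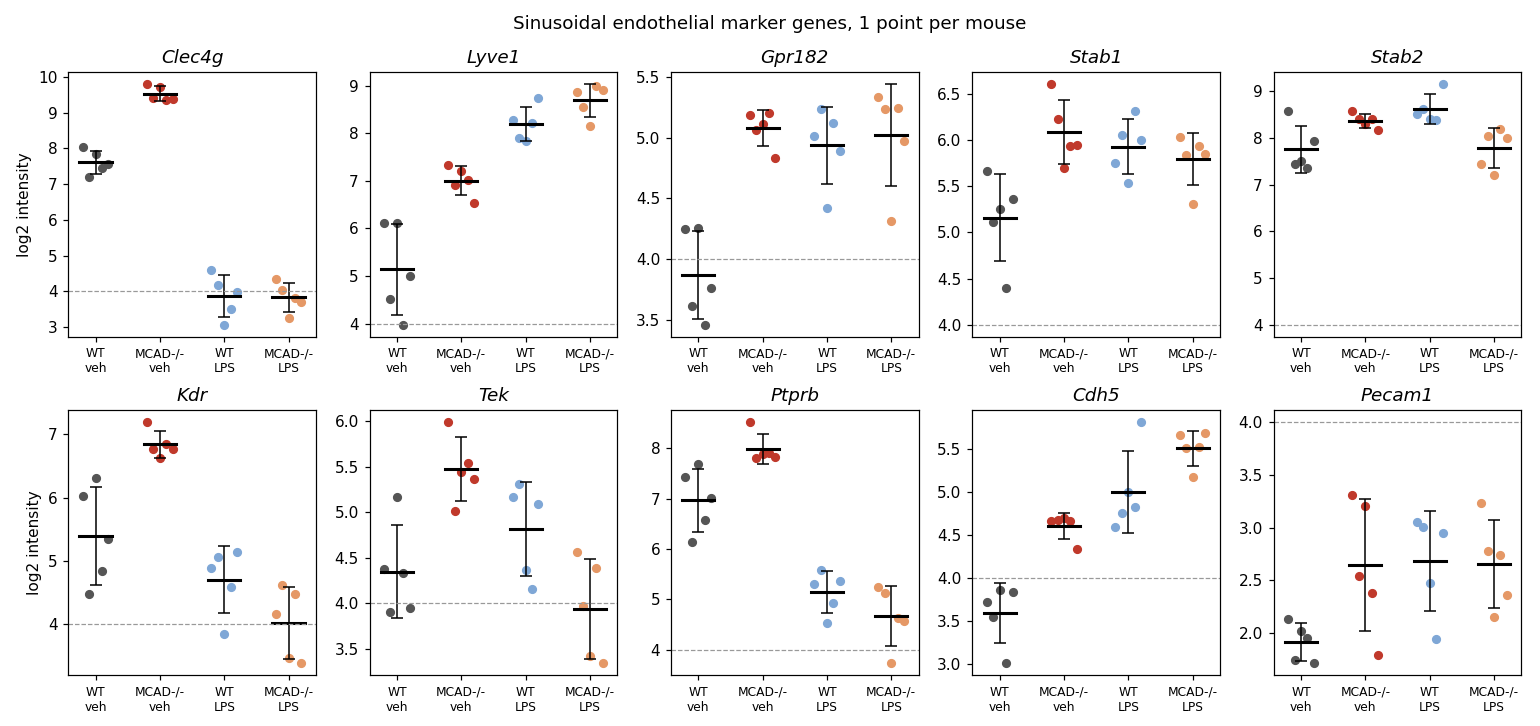
Level of each of the 10 genes (y axis, log2 intensity, with its own scale in each panel) in each mouse (points) of the 4 groups (x axis; WT, wild type; veh, vehicle), with group mean and SD (bars, n = 5). The dashed line marks 16 units, which Pecam1 did not exceed on any array, and Clec4g lay at or above 147 units in every vehicle mouse and at or under 24.2 units in every LPS mouse.

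With vehicle, the sinusoidal markers were higher in MCAD-/- than in wild type livers. Of the 9 genes tested 8 rose, against a background of 9.81% of tested genes that rose. None fell in limma, also at an unadjusted p under 0.05, against 6.39% of tested genes. The median log2 difference of the 9 was 1.12, and that of all tested genes was 0.04. For 7 of the 9 the groups did not overlap, against 13.8% of all tested genes. Clec4g and Lyve1 had the largest differences, and Stab2 did not pass.

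Among the scavenger receptors, Stab1 (probe set 1450199_a_at), which takes up modified lipoproteins and other waste, had 50.9, 34.6, 38.0, 21.1 and 41.2 units in wild type. In MCAD-/- it had 97.6, 75.1, 52.1, 61.1 and 61.8 units. All 5 knockout values lay above the highest wild type value, replicate 3 by a narrow margin. Stab1 rose by 0.92 ± 0.21 on the log2 scale, which is 1.90-fold (adjusted p = 0.00488). Stab2 (1419423_at), a receptor that clears hyaluronan from blood, had 379, 173, 181, 163 and 243 units in wild type and 384, 338, 316, 338 and 288 units in MCAD-/-. Wild type replicate 1 lay among the knockout values while its group mates lay below all of them. The Stab2 difference of 0.62 ± 0.22, with a 95% interval from 0.15 to 1.08, missed the threshold (adjusted p = 0.0657). It was 0.82 without wild type vehicle replicate 1 (adjusted p = 0.00755), and 0.62 with an adjusted p of 0.0482 without MCAD-/- LPS replicate 3, which enters this comparison through the shared spread alone.

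Lyve1 (1429379_at) encodes a hyaluronan receptor that lymphatic endothelium and some macrophages also carry. It had 69.0, 23.0, 69.0, 15.7 and 31.8 units in wild type and 161, 120, 149, 130 and 93.1 units in MCAD-/-. The wild type mice split into high and low values, and every knockout mouse lay above them. Lyve1 rose 3.63-fold (1.86 ± 0.32, adjusted p = 0.000424). Clec4g (1427428_at), a C-type lectin of the sinusoidal lining, had 261, 147, 228, 175 and 190 units in wild type and 895, 685, 846, 655 and 668 units in MCAD-/-. The lowest knockout mouse exceeded the highest wild type mouse by a wide gap. Clec4g rose 3.78-fold (1.92 ± 0.24, adjusted p = 9.34e-06). Gpr182 (1418554_at), an atypical chemokine receptor of sinusoidal endothelium, had 19.0, 12.3, 19.1, 11.02 and 13.6 units in wild type and 36.4, 33.4, 34.6, 36.8 and 28.4 units in MCAD-/-. The groups stayed apart, although 3 of the 5 wild type values lay under 16 units. Gpr182 rose 2.31-fold (1.21 ± 0.20, adjusted p = 0.000209), or 1.97-fold with values under 16 units set to 16.

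Of the growth factor receptors, Kdr (1449379_at), the main signalling receptor for VEGF on endothelium, had 64.8, 22.2, 79.5, 28.6 and 40.6 units in wild type with vehicle. The MCAD-/- mice had 146, 108, 99.1, 115 and 109 units. No values overlapped, and replicates 2 and 4 of wild type were the lowest. Kdr rose 2.72-fold (1.44 ± 0.32, adjusted p = 0.0040). Tek (1418788_at), the receptor of the angiopoietins, had 20.7, 15.0, 35.9, 20.2 and 15.5 units in wild type and 63.4, 32.4, 43.4, 46.6 and 41.3 units in MCAD-/-. Wild type replicate 3 lay above knockout replicate 2, so the groups overlapped. Tek rose 2.18-fold (1.12 ± 0.28, adjusted p = 0.00964). Ptprb (1436367_at), the endothelial phosphatase that acts on the products of Tek and Cdh5, had 173, 70.0, 205, 95.9 and 128 units in wild type and 366, 222, 237, 238 and 228 units in MCAD-/-. Knockout replicate 1 stood far above its group, and even the lowest knockout mouse exceeded all wild type mice. Ptprb rose 2.03-fold (1.02 ± 0.29, adjusted p = 0.0215). That call was lost without wild type vehicle replicate 2 (0.81, adjusted p = 0.0685), without wild type vehicle replicate 4 (0.92, adjusted p = 0.0597) or without MCAD-/- vehicle replicate 1 (0.89, adjusted p = 0.0657).

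Cdh5 (1433956_at), VE-cadherin of the endothelial junction, had 13.2, 11.7, 14.5, 8.07 and 14.3 units in wild type with vehicle. In MCAD-/- it had 25.3, 25.5, 25.9, 25.4 and 20.2 units. All wild type values lay under 16 units and all knockout values above it. Cdh5 was at least 1.52-fold higher in MCAD-/- (adjusted p = 0.00103). Pecam1 (1421287_a_at), an adhesion molecule of endothelium and platelets, ran from 3.28 to 9.93 units over all 20 arrays. It was not measured above the floor in any group, so no difference is given for it.

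**Figure D2:**
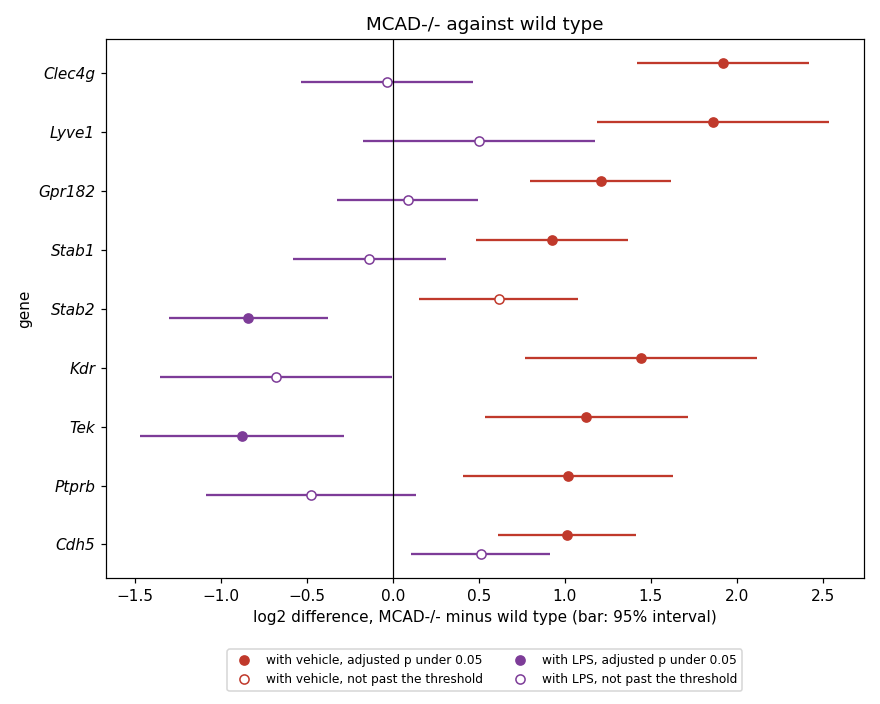
Log2 difference between MCAD-/- and wild type (x axis, points, with 95% intervals as bars) for the 9 tested genes (y axis), with vehicle in red and with LPS in purple. Filled points passed the threshold. With vehicle all 9 lay above 0 and Stab2 alone was open, and with LPS the filled points are Stab2 and Tek, both below 0.

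In wild type livers, some markers were higher and others lower with LPS. Lyve1, Cdh5, Gpr182, Stab1 and Stab2 rose, Clec4g and Ptprb fell, and Kdr and Tek did not pass. The 5 rises and 2 falls among 9 stand against a background of 40% of all tested genes that rose and 24% that fell, or 7 of 9 against 64% in both directions together. Groups did not overlap for 5 of the 9, against 46.1% of all tested genes. The median difference was 0.77 for the markers and 0.18 for all tested genes.

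In wild type mice with LPS, Stab1 had 53.9, 66.6, 46.2, 79.5 and 63.9 units. Most of these exceeded the vehicle values, and replicate 3 fell among them. Stab1 rose 1.71-fold (0.77 ± 0.21, adjusted p = 0.00367). Stab2 had 365, 396, 340, 335 and 571 units, which overlapped the vehicle group through its replicate 1. It rose 1.82-fold (0.86 ± 0.22, adjusted p = 0.00212). Lyve1 had 312, 237, 229, 296 and 425 units, all several times the highest vehicle value. Its rise of 8.29-fold (3.05 ± 0.32, adjusted p = 1.18e-07) was the largest among the markers in wild type. Gpr182 had 32.2, 37.7, 21.4, 34.9 and 29.7 units, with every mouse above every vehicle mouse. Gpr182 rose 2.09-fold (1.07 ± 0.20, adjusted p = 9.72e-05).

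Clec4g went the other way. Its wild type mice with LPS had 24.2, 18.1, 8.37, 11.4 and 15.9 units, far under the lowest vehicle value, and 3 of the 5 lay under 16 units. Clec4g fell 13.5-fold (log2 difference -3.75 ± 0.24, adjusted p = 9.68e-11), or 11.03-fold with values under 16 units set to 16. Ptprb had 39.6, 48.2, 23.1, 30.5 and 41.3 units, all under the lowest vehicle value. It was 3.53-fold lower (-1.82 ± 0.29, adjusted p = 2.12e-05).

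Kdr had 29.6, 33.4, 14.3, 24.1 and 35.2 units in wild type mice with LPS, within or under the vehicle range. Its difference of -0.69 ± 0.32, with a 95% interval from -1.37 to -0.02, did not pass (adjusted p = 0.0677). It passed without wild type vehicle replicate 2 (-0.92, adjusted p = 0.0160), wild type vehicle replicate 4 (-0.83, adjusted p = 0.0400) or wild type LPS replicate 5 (-0.80, adjusted p = 0.0496), and with values under 16 units set to 16 (-0.66, adjusted p = 0.0473). Tek had 35.9, 39.5, 20.5, 17.8 and 33.9 units, and both groups covered nearly the same range. Its difference was 0.47 ± 0.28, with an interval from -0.12 to 1.06 (adjusted p = 0.156). Without wild type vehicle replicate 3 it passed at 0.67 (adjusted p = 0.0392), and without both arrays of high actin ratio at 0.84 (adjusted p = 0.0124). Cdh5 had 24.1, 27.0, 32.0, 28.2 and 56.0 units, all above the vehicle mice, and replicate 5 was the highest. Cdh5 was at least 1.99-fold higher with LPS (adjusted p = 3.31e-06).

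In MCAD-/- livers most markers were lower with LPS. Clec4g, Ptprb, Kdr, Tek and Stab2 fell and Lyve1 and Cdh5 rose. These 5 falls and 2 rises among 9 stand against 27.6% of all tested genes that fell and 38.1% that rose, 65.7% in all. The groups did not overlap for 6 of the 9, against 51.4% of tested genes. The median difference was -0.59 for the markers and 0.14 for all tested genes.

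Stab1 had 65.6, 57.2, 39.6, 61.1 and 57.6 units in MCAD-/- mice with LPS, largely within the vehicle range. Its difference was -0.29 ± 0.21, with an interval from -0.74 to 0.15 (adjusted p = 0.234). Stab2 had 173, 265, 148, 294 and 256 units, and replicate 4 reached into the vehicle group. Stab2 fell 1.51-fold (-0.59 ± 0.22, adjusted p = 0.0244). The Stab2 call was lost without MCAD-/- vehicle replicate 1 (-0.54, adjusted p = 0.0561), MCAD-/- LPS replicate 1 (-0.51, adjusted p = 0.0660) or MCAD-/- LPS replicate 3 (-0.45, adjusted p = 0.0819). Lyve1 had 465, 374, 285, 511 and 477 units, above all vehicle mice, and rose 3.23-fold (1.69 ± 0.32, adjusted p = 0.000135). Gpr182 had 40.4, 37.7, 19.8, 38.0 and 31.5 units, which spanned the vehicle group. The Gpr182 difference was -0.06 ± 0.20, with an interval from -0.47 to 0.35 (adjusted p = 0.811), and its sign turned without MCAD-/- LPS replicate 3.

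Clec4g had 20.4, 16.3, 9.62, 14.2 and 12.9 units in MCAD-/- mice with LPS, down from 655 to 895 units with vehicle. It fell 52.2-fold (-5.71 ± 0.24, adjusted p = 1.78e-13), or 44.1-fold with values under 16 units set to 16. With 3 of these 5 mice under 16 units, the size of the fall depends on the floor. Ptprb had 38.1, 34.9, 13.3, 24.9 and 23.9 units, all far under the vehicle mice, and was 9.97-fold lower (-3.32 ± 0.29, adjusted p = 8.13e-09). Kdr had 18.0, 24.7, 10.99, 22.2 and 10.5 units, again with no overlap. It fell 7.05-fold (-2.82 ± 0.32, adjusted p = 2.99e-07), or 6.01-fold with values under 16 units set to 16. These receptors and the phosphatase that acts on Tek lay close to the floor after LPS in this genotype. Tek had 23.5, 15.7, 10.7, 20.9 and 10.1 units, 3 of them under 16, and fell 2.90-fold (-1.53 ± 0.28, adjusted p = 9.40e-05). With values under 16 units set to 16, Tek fell 2.43-fold. Cdh5 had 50.3, 45.3, 36.0, 45.8 and 51.2 units, all above the vehicle mice. It rose 1.86-fold (0.90 ± 0.19, adjusted p = 0.000426).

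**Figure D3:**
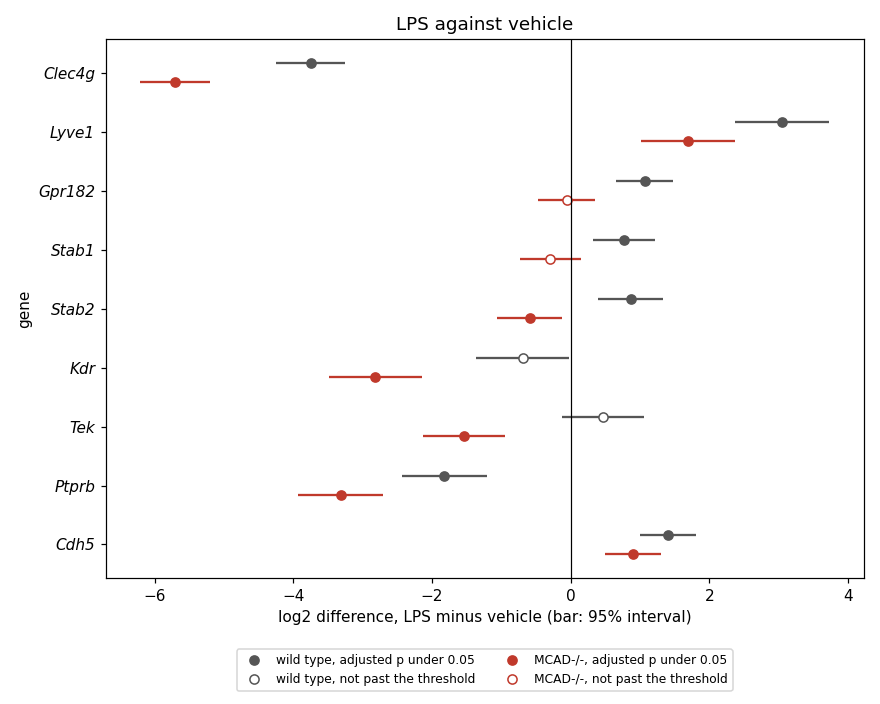
Log2 difference between LPS and vehicle (x axis, points, with 95% intervals as bars) for the 9 tested genes (y axis), in wild type (grey) and MCAD-/- (red). Filled points passed the threshold. Clec4g and Ptprb lay below 0 and Lyve1 and Cdh5 above 0 in both genotypes, while Stab2 passed on opposite sides of 0, at 0.86 in wild type and -0.59 in MCAD-/-.

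The response to LPS itself differed between the genotypes. The interaction, the LPS difference in MCAD-/- minus that in wild type, was negative for all 9 genes and passed for 6: Kdr, Tek, Clec4g, Ptprb, Stab2 and Gpr182. Over all tested genes 4.11% passed, 2.76% below 0 and 1.36% above it. The median interaction was -1.46 for the markers and -0.07 for all tested genes. The interaction uses the same 20 mice as the other comparisons and equals the genotype difference with LPS minus that with vehicle, so it is no independent evidence of either.

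The interaction of Kdr was -2.12 ± 0.46 (adjusted p = 0.0115). For Tek it was -2.00 ± 0.40 (adjusted p = 0.00669), built from a difference of 0.47 in wild type and -1.53 in MCAD-/-. For Clec4g it was -1.95 ± 0.34 (adjusted p = 0.00227). After LPS, Clec4g was near the floor in both genotypes, so both of its LPS differences end there. Its interaction therefore mirrors its genotype difference of 1.92 with vehicle, and a difference in response cannot be read from it. Stab2 had an interaction of -1.46 ± 0.31 (adjusted p = 0.0115), and Gpr182 had -1.12 ± 0.28 (adjusted p = 0.0256). The Gpr182 call was lost without wild type vehicle replicate 4 (-1.02, adjusted p = 0.0529), and that mouse left out took the count of markers past the threshold from 6 to 4. Ptprb passed narrowly at -1.50 ± 0.41 (adjusted p = 0.0448), and its call was lost in 17 of 32 alternative settings, with adjusted p between 0.0122 and 0.0851. Among mice left out in turn, the Ptprb call held only without wild type vehicle replicate 1 or 3, wild type LPS replicate 3, MCAD-/- vehicle replicate 5, or MCAD-/- LPS replicate 1 or 2.

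The remaining 3 interactions did not pass. Stab1 had -1.06 ± 0.30 (adjusted p = 0.0506), and passed with adjusted p from 0.0261 to 0.0498 without wild type vehicle replicate 1, wild type LPS replicate 3, MCAD-/- vehicle replicate 3 or 5, or MCAD-/- LPS replicate 4. Lyve1 had -1.36 ± 0.46 (adjusted p = 0.0955), and reached -1.60 with adjusted p of 0.0375 and 0.0384 without wild type vehicle replicate 1 or 3. Cdh5 had -0.50 ± 0.27 (adjusted p = 0.319), and -0.10 with values under 16 units set to 16.

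With LPS, Stab2 and Tek were lower in MCAD-/- than in wild type livers, and no marker passed as higher. These are 2 of 9 genes against a background of 11.8% of tested genes that were lower, and 0 of 9 against 8.75% that were higher (20.6% in both directions). In the same limma fit, at an unadjusted p under 0.05, 3 were lower and 1, Cdh5, was higher. The median difference was -0.14 for the markers and -0.03 for all tested genes. Stab2 was 1.79-fold lower in MCAD-/- (-0.84 ± 0.22, adjusted p = 0.0105), with all 5 knockout mice under all wild type mice. The groups did not overlap, in either direction, for 12.8% of tested genes. Tek was 1.84-fold lower (-0.88 ± 0.28, adjusted p = 0.0332) with overlapping groups. The Tek call was lost without wild type LPS replicate 1, 2 or 5 or MCAD-/- LPS replicate 2, 3 or 5, with log2 differences from -0.89 to -0.73 and adjusted p from 0.0517 to 0.0929, and with values under 16 units set to 16 (-0.63, adjusted p = 0.0731). Kdr had -0.68 (interval -1.36 to -0.01, adjusted p = 0.145) and Ptprb -0.48 (interval -1.09 to 0.13, adjusted p = 0.269). Cdh5 had 0.51 (interval 0.11 to 0.91, adjusted p = 0.0670), and passed without wild type vehicle replicate 4 (0.51, adjusted p = 0.0463) or wild type LPS replicate 5 (0.71, adjusted p = 0.00317). Lyve1 had 0.50 (interval -0.17 to 1.18, adjusted p = 0.299). Clec4g at -0.03, Gpr182 at 0.08 and Stab1 at -0.14 lay near 0, and their intervals allow differences of up to 0.54, 0.50 and 0.58 in size.

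Other endothelial genes were also higher in MCAD-/- livers with vehicle. Of 20 further sinusoidal markers 14 were tested, of which 11 were higher and none lower, also at an unadjusted p under 0.05, with a median of 1.13. Of all tested genes 9.81% were higher and 6.39% lower. F8 and Ntn4 were tested only because they exceeded 16 units in MCAD-/- mice with vehicle, so they could hardly count as lower. Ehd3, a membrane trafficking protein, rose by 2.22 ± 0.22 (adjusted p = 3.44e-07), and Fcgr2b, the inhibitory Fc receptor that clears immune complexes, rose by 1.56 ± 0.31 (adjusted p = 0.0015). Oit3 rose by 1.54 ± 0.31 and the transcription factor Maf by 0.77 ± 0.14. Of 26 genes common to endothelium 15 were tested, of which 10 were higher and 1 lower, with a median of 0.95. Among these 15, Clec14a, Lmo2 and Tie1 likewise passed the filter only through MCAD-/- mice with vehicle. Mmrn2, an endothelial matrix protein, rose by 1.42 ± 0.20, the junction protein Esam by 1.18 ± 0.18 and the guidance receptor Robo4 by 0.95 ± 0.23. Ramp2, part of the adrenomedullin receptor, was at least 1.31-fold higher. The gene that fell was the VEGF co-receptor Nrp1 (-0.73 ± 0.19, adjusted p = 0.012), named after its value was seen. Of 10 capillary and large-vessel markers 4 were tested and 3 rose, or 1 with values under 16 units set to 16. Plvap, a component of fenestral diaphragms, rose by 1.48 ± 0.29 and Thbd at least 1.10-fold. Vwf also passed, but all 5 wild type mice and 3 of 5 MCAD-/- mice lay under 16 units, so no size is given.

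Around Kdr and Tek, 9 of 20 ligands and receptors were tested, and with vehicle 3 rose and 2 fell. Of all tested genes 9.81% rose and 6.39% fell. Without wild type vehicle replicate 2 or 4 or MCAD-/- vehicle replicate 1 or 4, 1 rose and 2 fell, and with each probe set on its own 3 rose and none fell. Vegfa, the ligand of Kdr, had medians of 138 units in wild type and 150.1 units in MCAD-/- with vehicle (0.14 ± 0.18, adjusted p = 0.671). Vegfa fell with LPS in wild type (-1.30 ± 0.18, adjusted p = 2.93e-06) and in MCAD-/- (-0.72 ± 0.18, adjusted p = 0.0014), and with LPS it was higher in MCAD-/- (0.71 ± 0.18, adjusted p = 0.0073). Tie1, the partner of Tek, lay around the floor in all groups and was tested only through MCAD-/- mice with vehicle. It did not pass between genotypes with vehicle (0.43 ± 0.18, adjusted p = 0.116). Its fall with LPS in MCAD-/- passed (adjusted p = 0.0031), but the filter weights it that way. With 4 of 5 of these LPS mice under 16 units, no size is given. The angiopoietins were too dim to test, Angpt1 between 2.88 and 4.14 units and Angpt2 between 5.84 and 13.3 units. Flt1, the decoy receptor for VEGF, exceeded 16 units on 3 arrays and was not tested. Flt4, the receptor for Vegfc, rose by 1.08 ± 0.23 with vehicle, and Vegfc fell by 0.83 on the log2 scale. Of the junction partners of Cdh5 10 of 12 were tested. Jam2 (1.40 ± 0.37) and Esam rose with vehicle, while the catenins Ctnna1 (0.21 ± 0.09, adjusted p = 0.133) and Ctnnb1 (-0.20 ± 0.08, adjusted p = 0.0922) did not pass.

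With LPS, 4 of the 14 further sinusoidal markers rose and 4 fell in wild type, and 1 rose and 11 fell in MCAD-/-. Over all tested genes 40% rose and 24% fell in wild type, and 38.1% rose and 27.6% fell in MCAD-/-. F8 and Ntn4 of the 14 and Clec14a, Lmo2 and Tie1 of the genes common to endothelium were tested only through MCAD-/- with vehicle. That weights the counts in MCAD-/- towards falls and the interactions towards negative values. The mannose receptor Mrc1, which macrophages also make, fell by 2.47 in wild type and by 3.83 in MCAD-/- on the log2 scale, and Bmp2 fell by 1.70 and 3.25. Ehd3 fell by 1.05 and 3.57, with an interaction of -2.52 ± 0.31 (adjusted p = 5.02e-05). Of the 14, 6 had a negative interaction past the threshold and none a positive one (12 and none at an unadjusted p under 0.05). Coagulation factor F8 was at least 2.30-fold lower with LPS in MCAD-/-. The fatty acid transporter Cd36 rose by 2.71 ± 0.49 in wild type and by 1.30 ± 0.49 in MCAD-/-, and was the 1 gene of this list that differed between the genotypes with LPS (-2.11 ± 0.49, adjusted p = 0.0042). Of the genes common to endothelium 6 of 15 rose and none fell in wild type, also at an unadjusted p under 0.05, and 3 rose and 6 fell in MCAD-/-. The 6 rises in wild type are the same share as the 40% of all tested genes. Nos3, Ramp2 and Fli1 lay under 16 units in every wild type vehicle mouse and passed the filter only with LPS mice counted. That weights the count in wild type towards rises. Nos3, the endothelial nitric oxide synthase, was at least 3.27-fold higher with LPS in wild type and rose by 1.32 ± 0.19 in MCAD-/-. Of 12 genes of endothelial activation 5 were tested. Of these, Selp, Procr and Cd274 lay under 16 units in every vehicle mouse and were tested only because they were high with LPS, so no count is given for this list. Icam1 rose by 3.54 ± 0.26 and 2.32 ± 0.26, and Procr was at least 6.73-fold and at least 3.85-fold higher. Vcam1, an adhesion molecule for leukocytes, rose by 0.49 ± 0.21 in wild type and fell by 0.80 in MCAD-/-, with an interaction of -1.29 ± 0.30 (adjusted p = 0.0174).

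Markers of other cells moved beside the 10 genes. The counts with vehicle stand against 9.81% of all tested genes that rose and 6.39% that fell. With vehicle, 7 of 10 tested Kupffer cell markers (of 14 listed) rose in MCAD-/- and none fell, also at an unadjusted p under 0.05, with a median of 0.90, and the summed level of the list ran from 1059 to 1959 units in wild type and from 1986 to 2800 units in MCAD-/-. Their defining markers gave mixed results: Vsig4, a complement receptor, rose by 1.28 ± 0.22, while Clec4f had 0.40 ± 0.33 (adjusted p = 0.448) and Cd5l 0.38 ± 0.38 (adjusted p = 0.551). Of 12 tested stellate cell and fibroblast markers (of 14 listed) 7 rose and none fell (8 and none at an unadjusted p under 0.05), with a median of 0.75, and the summed level ran from 1668 to 2826 units in wild type and from 3177 to 3506 units in MCAD-/-. Reln rose by 0.63 ± 0.18, Lrat had 0.15 ± 0.39 (adjusted p = 0.847), and Des did not exceed 16 units. Hepatocyte markers had a median of 0.03, with 1 of 10 higher, and Alb had 0.04 ± 0.07 (adjusted p = 0.745). The part of the other cell types in the marker difference was not tested. Bile duct markers did not pass the filter (0 of 6 listed, with Krt7 between 2.68 and 4.45 units and Krt19 between 3.35 and 5.33 units). Of the lymphatic list, Prox1 had -0.62 ± 0.22 (adjusted p = 0.0618) and Pdpn lay between 5.16 and 8.36 units. Reln and Flt4, which are also on that list, rose with vehicle.

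With LPS, Kupffer cell markers fell in both genotypes, 7 of 10 in wild type and 9 of 10 in MCAD-/-, and Marco rose in both. Vsig4 was at least 9.37-fold lower in wild type and at least 22.7-fold lower in MCAD-/-, and Clec4f fell by 3.13 and 3.33 on the log2 scale. None of the 10 had an interaction past the threshold, and at an unadjusted p under 0.05 4 did, all negative. Stellate cell markers fell in 4 and rose in 2 of 12 in wild type, and 7 fell and none rose in MCAD-/-, also at an unadjusted p under 0.05. The shares of all tested genes were 24% falling and 40% rising in wild type, and 27.6% and 38.1% in MCAD-/-. The 4 stellate falls in wild type lie near that share. The neutrophil genes S100a8 and S100a9 were higher in every LPS mouse than in every vehicle mouse. S100a8 ran from 905 to 1892 units with LPS against 4.30 to 45.5 units with vehicle in wild type, and from 1297 to 1444 units against 4.55 to 83.5 units in MCAD-/-. S100a9 ran from 877 to 1909 units against 6.84 to 37.7 units, and from 1310.4 to 1651 units against 6.03 to 95.01 units. Most vehicle mice lay under 16 units for both genes, so no fold is given. Their part in the marker differences was not tested.

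**Figure D4:**
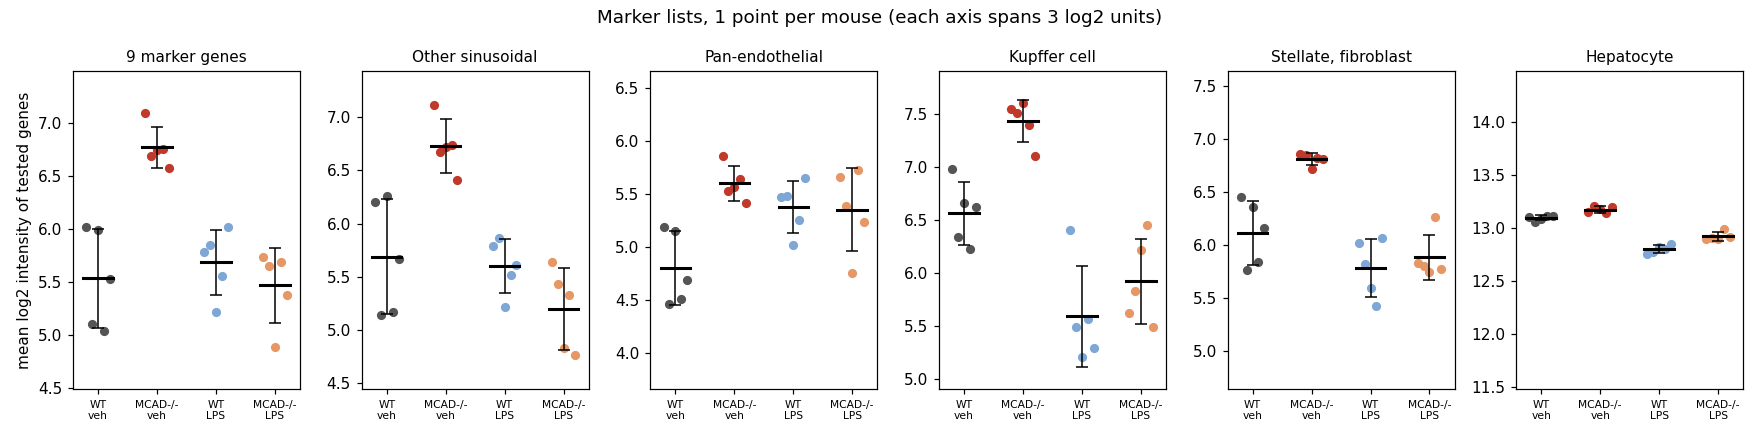
Mean log2 intensity of the tested genes of each list (y axis, equal spans of 3 log2 units) in each mouse (points) of the 4 groups (x axis; WT, wild type; veh, vehicle), with group mean and SD (bars, n = 5). With vehicle the means of the 9 sinusoidal genes ran from 5.05 to 6.02 in wild type mice and from 6.58 to 7.10 in knockout mice, the Kupffer and stellate lists were also higher in MCAD-/-, and the hepatocyte list lay between 13.06 and 13.20 in the vehicle groups.

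The markers also varied together among mice of 1 group. After each group's mean was taken off, the 36 pairs of tested markers had correlations over the 20 mice from 0.14 (Clec4g with Cdh5) to 0.87 (Kdr with Ptprb), with a median of 0.59 and no negative value. These are descriptions, since all genes of a mouse share its array and its RNA. In the wild type vehicle group, replicate 2 was among the 2 lowest mice for 9 of 9 markers and replicate 4 for 8, and replicate 1 was among the 2 highest for 8. The median SD of the markers there was 0.50 on the log2 scale, against 0.21 in MCAD-/- with vehicle. All 9 varied more in wild type than in MCAD-/- with vehicle, as did 53.4% of tested genes, and the difference in spread was not tested. In the LPS groups the median SD was 0.42 in both genotypes. Replicate 3 of the MCAD-/- LPS group, in which Acadm was highest among knockouts, was lowest in its group for 7 of 9 markers. Without it 1 marker passed between the genotypes with LPS in place of 2. The same held without wild type LPS replicate 1 or 2 or MCAD-/- LPS replicate 2 or 5.

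**Figure D5:**
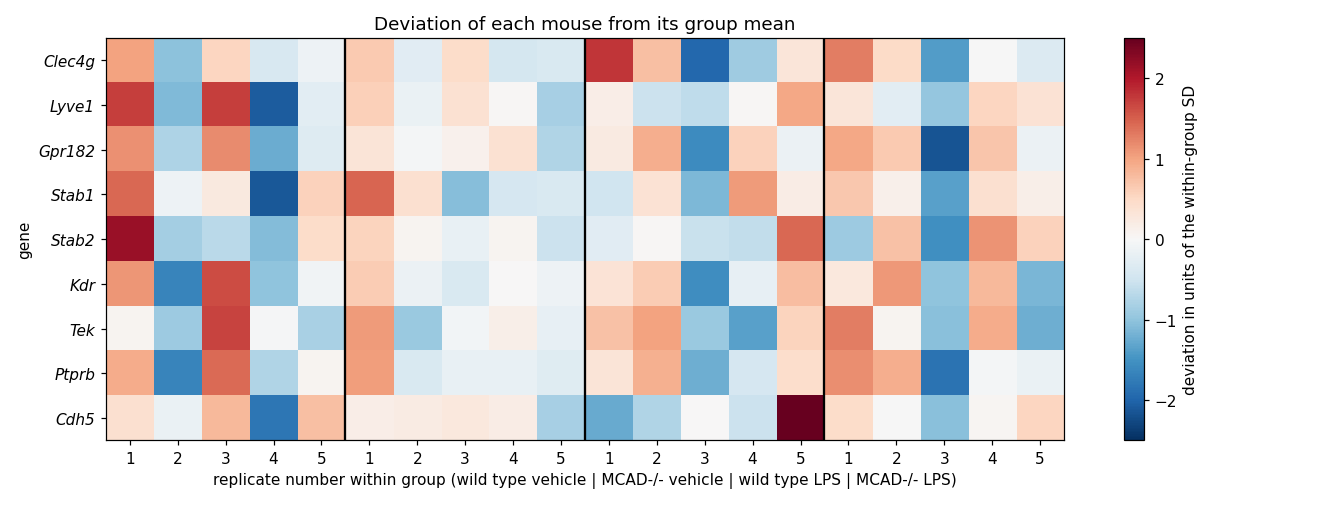
Deviation of each mouse (x axis, replicate number within group) from its group mean for the 9 tested genes (y axis), in units of each gene's SD within groups (colour, red above and blue below). In the wild type vehicle group replicates 1 and 3 are mostly red and replicates 2 and 4 blue or pale, and replicate 3 is mostly blue in both LPS groups.

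The genes whose deviations were most like the mean deviation of the markers were Plpp1 (r = 0.94 over 20 mice), Calcrl (0.91), C1qtnf1 (0.90), Ehd3 (0.88), Rspo3 (0.87), Ramp2 (0.87), Gimap4 (0.87), Oit3 (0.86), Cyp4b1 (0.86) and Jam2 (0.85). Calcrl, Ehd3, Rspo3, Ramp2, Oit3 and Jam2 stand on the lists of sinusoidal, general endothelial or junction genes, and the others are on none of the lists. Plpp1, a lipid phosphatase, rose by 1.00 ± 0.27 in MCAD-/- with vehicle and by 2.07 ± 0.27 with LPS in wild type, with an interaction of -1.54 ± 0.39 (adjusted p = 0.0276). The median r was 0.76 over the further sinusoidal markers, 0.69 over genes common to endothelium, 0.44 over stellate cell markers, 0.28 over Kupffer cell markers, 0.06 over hepatocyte markers and 0.05 over all tested genes. Among the markers themselves r ran from 0.92 for Ptprb to 0.58 for Cdh5, each being part of the mean it was set against.

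Other probe sets of the same genes were available for Clec4g, Lyve1, Ptprb and Cdh5. The second Lyve1 set had log2 differences of 1.32 between genotypes with vehicle (adjusted p = 0.0109), 2.22 for LPS in wild type and 1.81 for LPS in MCAD-/-, each in the direction of the first. Its interaction was -0.41 (adjusted p = 0.698), against -1.36 for the first set. A second Ptprb set had 0.69 between genotypes with vehicle, which did not pass (adjusted p = 0.105), and -2.32 and -3.06 for LPS in wild type and MCAD-/-, which did. Its interaction of -0.74 did not pass (adjusted p = 0.325). The second Clec4g and Cdh5 sets and the third Ptprb set did not exceed 16 units on any array.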

How the data were processed

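The deposited table holds 45101 probe sets with 1 column per mouse, matched to samples by their titles, as linear intensity. Per the submitters' processing notes, the authors made these deposited intensity values with GCRMA, a method that removes background, scales the arrays to one another and combines the probes of a set. Its version is not given in the sources used here. Differences are therefore relative to the whole array. The platform annotation gave 1 symbol to 34945 probe sets, several to 932, which were not named, and none to 9160. The 64 control probe sets were left out of the tests.

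Values were taken to log2 with no pseudocount. For each gene, limma 3.58.1 (R 4.3.3) fitted a linear model with the 4 groups, and the 5 comparisons were the genotypes with vehicle and with LPS, LPS in each genotype, and their interaction. The fit was tested on simulated data. The series design calls the mice biological replicates, and their number limits the precision. Genotype and LPS comparisons share mice, so their results are not independent.

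The markers and lists were chosen with earlier results of these data known. Named were all 10 markers, Acadm, up to 4 genes of a list with the smallest adjusted p in the comparison described, the first 3 genes of lists of other cell types, Vegfa, Angpt1, Angpt2, Flt1 and Tie1, and the 10 genes most like the markers in their deviations within groups. Nrp1 with vehicle was named after its value was seen, as were genes of a list described again in a further comparison. Some genes were named for the groups through which they passed the filter.

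Mice with the same replicate number mostly did not deviate together (the correlation of their deviations exceeded 0.1 in 7 of 30 pairs, range -0.12 to 0.28). The highest values were 0.28 and 0.27, for replicates 3 and 2 of the LPS groups. Whether the numbers stand for a shared order of processing cannot be told. They were treated as names in the main fit, with the replicate block as an alternative. No scan date or slide is given in the table, so batches could not be examined. Alternatives were other scaling, filters, floors, probe set rules, priors, array weights, the compared groups alone, a 1.5-fold minimum, the replicate block and each mouse left out. Leaving out both arrays of high actin ratio was chosen after seeing the data.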

Additional observations from a re-analysis of the deposited data

Results flagged for a closer look

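In 6 of the 9 tested markers the interaction in the limma model, the test of a difference in the response to LPS, passed the threshold. As shares of all tested genes, 4.11% passed, 2.76% below 0 and 1.36% above it. The Ptprb call was lost in 17 of 32 alternative settings and the Gpr182 call in 1 of 31. For the second Ptprb probe set the interaction was -0.74 and did not pass in limma (adjusted p = 0.325). The log2 interactions were -1.95 for Clec4g, -1.12 for Gpr182, -1.46 for Stab2, -2.12 for Kdr, -2.00 for Tek and -1.50 for Ptprb, each the LPS difference in MCAD-/- minus that in wild type. Clec4g lay near the floor with LPS in both genotypes, so its interaction mirrors its genotype difference of 1.92 with vehicle. A difference in its response cannot be read from it.

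Single mice stood apart from their group in 3 of the 40 combinations of gene and group examined, where chance picks out about 1 in 20. Stab1 had 39.6 units in MCAD-/- LPS replicate 3, with its group mates between 57.2 and 65.6. Ptprb had 366 units in MCAD-/- vehicle replicate 1, with its group mates between 222 and 238. Cdh5 had 20.2 units in MCAD-/- vehicle replicate 5, with its group mates between 25.3 and 25.9.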

How the results depend on the processing

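Of 45 results for single markers (9 genes in 5 comparisons) 30 passed the threshold, and 25 of these kept their call and direction under every alternative run for them. The 5 that lost it in at least 1 were Ptprb and Tek between genotypes (with vehicle and with LPS), Stab2 for LPS in MCAD-/-, and the interactions of Gpr182 and Ptprb. With mice left out in turn, the markers past the threshold numbered 7 to 9 with vehicle, 1 to 3 between genotypes with LPS, 7 to 8 and 6 to 7 for LPS in wild type and MCAD-/-, and 4 to 8 for the interaction. A filter at 64 units, under which fewer genes were tested, left 5 markers with vehicle and 1 between genotypes with LPS, and the fit of the compared groups alone also left 1 with LPS. Over all genes, array weights gave 2855 with vehicle in place of 1422 and 879 interactions in place of 361, the 64-unit filter gave 236 interactions and each probe set on its own 229, and a 1.5-fold minimum left 1100 of 1806 between genotypes with LPS. Other causes were not tested.

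No result past the threshold reversed in any alternative run, but 3 results near 0 did. With array weights, Clec4g between genotypes with LPS was 0.021 and Gpr182 for LPS in MCAD-/- 0.046. With mice left out in turn, Clec4g between genotypes with LPS ran from -0.24 to 0.15, Gpr182 in the same comparison from -0.044 to 0.26, and Gpr182 for LPS in MCAD-/- from -0.14 to 0.12, against -0.03, 0.08 and -0.06 with all mice.

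With the replicate block the markers past the threshold numbered 8, 2, 7, 7 and 7 in the order of the comparisons, the Stab1 interaction being added (adjusted p = 0.0382). With no filter Pecam1 was counted as higher with LPS in wild type, at 3.85 to 8.27 units against 3.28 to 4.38, below the floor where values have no order. The floor limits the groups with mice under 16 units: Clec4g with LPS in both genotypes, Tek (3 of 5 mice), Kdr (2) and Ptprb (1) in MCAD-/- with LPS, Kdr (1) in wild type with LPS, and Cdh5, Gpr182, Tek and Lyve1 in wild type with vehicle. With values under 16 units set to 16, the interactions of Kdr and Tek were -1.93 and -1.72, against -2.12 and -2.00. Over 33 alternatives, the genes past the threshold with vehicle numbered 7 to 13 in the list of further sinusoidal markers (11 as reported), 5 to 14 in genes common to endothelium (11), 6 to 10 in Kupffer cell markers (7) and 4 to 9 in stellate cell markers (7). Negative and positive interactions together numbered 4 to 11 in the further sinusoidal markers (6 as reported).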
